A study of Mus musculus with 10 samples.

Results

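Replication-dependent histone genes encode the core histones H2A, H2B, H3 and H4 and the linker histone H1 that package DNA made in S phase. The family was taken here as every protein-coding gene whose mouse symbol starts with Hist1h, Hist2h, Hist3h or Hist4h, testis variants included, which gave 67 genes of the 55421 in the count files. Members were chosen by symbol and by no measured value, but the family itself was picked with earlier results of the same genotype comparison known, so its RNA-seq levels and fold changes count as used in that choice and are given as a description. RNA-seq had been made from testes of 3 wild type (Mov10+/+) and 3 Mov10-/- mice at postnatal day 21, with each library made from the pair of testes of a single animal, and CLIP-seq, which sequences RNA crosslinked to an immunoprecipitated protein, had been made for MOV10 in 4 libraries from wild type testes of the same age. MOV10 is an RNA helicase. The Mov10-/- mice carried a deletion of floxed exons made in the whole body with Actb-Cre, which is driven by the beta-actin promoter, on a mixed 129 x C57BL/6 x Fvb background, and neither genotype received any treatment. The animals, but no litters, were distinguished in the sources, so the spread between libraries of one genotype is a spread between animals.

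The mRNAs of these genes differ from other mRNAs in how they end. Instead of a poly(A) tail, most carry a short hairpin that is bound by the stem-loop binding protein SLBP and cut just downstream by a complex guided by the U7 small nuclear RNA. Some histone genes also have a polyadenylation signal and can be made with a tail, above all in cells that have stopped dividing. In the testis, spermatogonia and preleptotene spermatocytes replicate DNA, and meiotic cells make testis variants of H1, H2A and H2B before transition proteins and protamines replace histones in spermatids. The RNA-seq libraries had been made with a kit that captures poly(A) RNA, so an mRNA that ends at the hairpin is a poor template for them, and a level here is a level of captured RNA.

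By class, the family held 6 H1, 18 H2A, 18 H2B, 12 H3 and 13 H4 genes. The Hist1 cluster on chromosome 13 held 54 of them, between positions 21715763 and 23934851 of mm10. The Hist2 cluster on chromosome 3 held 10, the Hist3 cluster on chromosome 11 held 2, and Hist4h4 stood alone on chromosome 6. Mov10 is also on chromosome 3, and its start lay 8.52 Mb from the end of the Hist2 cluster. A hairpin made of a stem of 6 base pairs that starts with GG and a loop of 4 bases that starts with TT was found after the stop codon of 44 of the 67 genes, against 50 other genes, among the 21901 protein-coding genes of the annotation, which makes 0.429% with the hairpin in all. For 15 of the 67 genes the annotated transcript ended within 3 bases of the stop codon, which left no window to search. Hairpins are shown because they are the mark that sets these mRNAs apart, with the paired stem in capitals and the loop in lower case. The 6 listed were read from 1 transcript per gene and cover 43 of the 44 genes. Hist1h2bp is left out, because its hairpin lies in another of its transcripts.

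25 genes of classes H1, H2A, H2B and H3, among them Hist1h1c, Hist1h2bg and Hist3h2a: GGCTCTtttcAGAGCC
7 H4 genes, among them Hist1h4d, Hist1h4f, Hist1h4h and Hist4h4: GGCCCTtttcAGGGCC
6 genes, among them Hist1h1t, Hist1h2bk and Hist1h3f: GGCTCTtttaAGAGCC
2 H4 genes, Hist1h4i and Hist2h4: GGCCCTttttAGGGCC
2 H4 genes, Hist1h4b and Hist1h4j: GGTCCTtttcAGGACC
1 gene, Hist2h2ac: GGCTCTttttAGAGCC

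The H4 hairpins thus differed from those of the other classes inside the stem, and the loop ended in c, a or t. A polyadenylation signal, AATAAA or ATTAAA within the last 50 bases of an annotated transcript, was found in 17 of the 67 genes and in 77.9% of all protein-coding genes, and 13 of the 17 also had the hairpin. The last 30 bases of annotated transcripts are shown with the signal in capitals, for 5 genes whose levels are described later. The signal of Hist3h2a starts 34 bases before the end, so the 30 bases from its start on are shown for that gene.

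Hist2h2be: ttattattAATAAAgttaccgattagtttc
Hist3h2a: AATAAAataagagtacgtgtataacataag
Hist1h1c: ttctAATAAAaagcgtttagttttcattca
Hist1h1t: cagAATAAAggtcaccattgaaacacacaa
Hist4h4: agaagatgctagaggagatgaAATAAAtac

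These letters come from the GENCODE vM21 transcripts of mm10. The start sites could be compared as well, in the windows of 250 bases before and 50 bases after the annotated start that RefSeq gives on GRCm38.p6, which were matched for 61 of the 67 genes. The letters CCAAT, on either strand, stood in 85.2% of the 61 windows against 37.9% of the windows of all genes, and TATAAA on the gene's strand stood in 49.2% against 8.88%. All 16 H2B windows and all 17 H2A windows held CCAAT, but only 3 of the 12 H4 windows did. TTTGCAT, the core of the octamer bound by OCT1, stood on either strand in 7 of 17 H2A and 6 of 16 H2B windows and in 4.59% of all windows. Many H2A and H2B genes lie head to head. Among such pairs with a matched window for both genes, 3 had 1 copy of this motif in the stretch that both promoters share. The windows of Hist1h2ac and Hist2h2ac also held the motif, but their neighbours Hist1h2bc and Hist2h2be had no matched window. The H2B side of each of the 3 pairs is shown with the motif in capitals, as the strand of the H2B gene reads.

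Hist1h2ba, shared with Hist1h2aa, chr13:23934301-23934330, minus strand: aattccccttaTTTGCATgcacccagcact
Hist1h2bg, shared with Hist1h2ae, chr13:23571331-23571360, plus strand: tgagtcccttaTTTGCATagaacctctata
Hist1h2bk, shared with Hist1h2ah, chr13:22035781-22035810, plus strand: atttcactttaTTTGCATacgaagttctag

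A match of letters is a description of the window and not a measured binding site.

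RNA-seq libraries held 5083407 to 9230540 reads on genes. Mov10-/- replicate 3 was the shallowest, and 57.2% of its reads had not been aligned. Mov10, the deleted gene, stood at 114, 96.4 and 119 CPM (reads on the gene in 1e6 reads on genes, scaled by the trimmed mean of M values, TMM) in wild type replicates 1, 2 and 3 and at 29, 26.6 and 26.7 CPM in Mov10-/- replicates 2, 3 and 4, with a log2 fold change of -2.00 ± 0.12 (SE) and an adjusted p of 0.00552 by the edgeR quasi-likelihood test. The labels and the level of the deleted gene thus went together in all 6 libraries. That adjusted p was 0.106 without Mov10-/- replicate 3 and 0.143 without Mov10-/- replicate 4.

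Summed over the 67 histone genes, the Mov10-/- testes had the higher levels. The sum was 162, 200 and 245 CPM in wild type replicates 1, 2 and 3, and 262, 462 and 264 CPM in Mov10-/- replicates 2, 3 and 4. The genotypes did not overlap, but wild type replicate 3 came close to Mov10-/- replicates 2 and 4, and Mov10-/- replicate 3 stood far above all others. The means were 203 ± 41.4 CPM in wild type and 329 ± 115 CPM in Mov10-/- testes (SD, n = 3 each), a ratio of 1.63 (log2 0.70). Without Mov10-/- replicate 3 the log2 ratio dropped to 0.38, while dropping wild type replicate 3 raised it to 0.86. In these bulk samples, more cells of a type and more RNA per cell cannot be told apart.

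**Figure D1:**
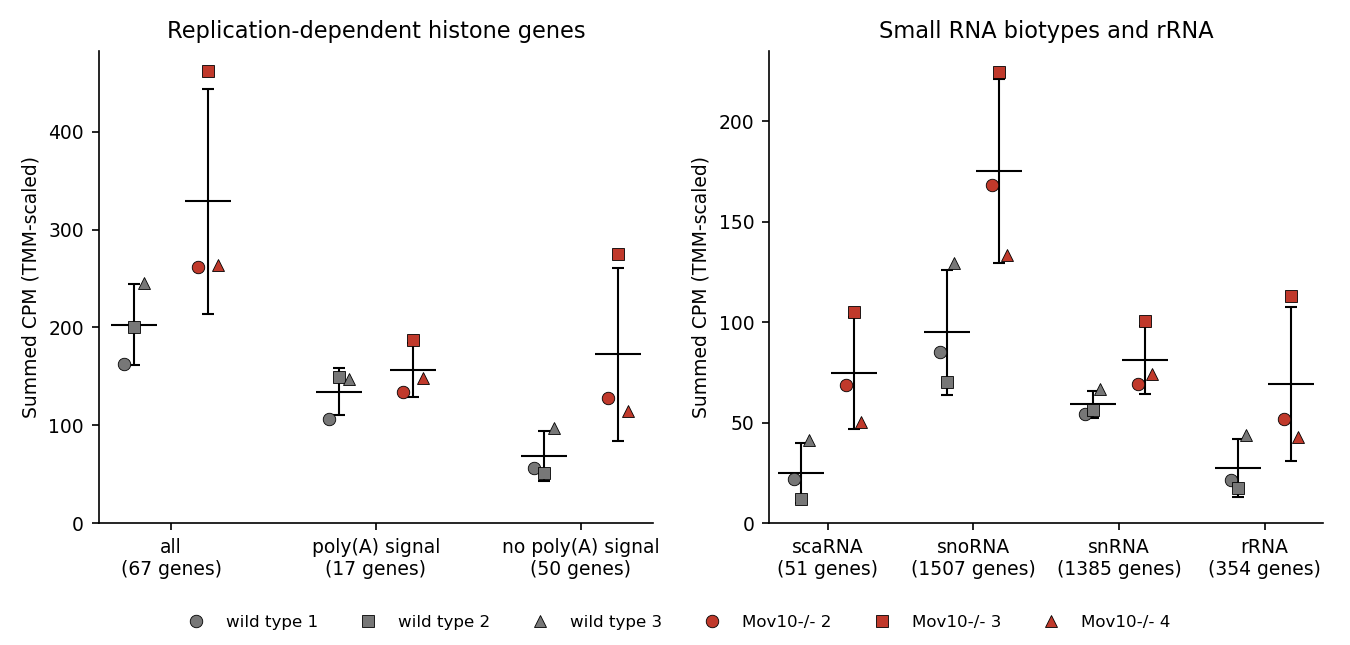
Summed CPM (TMM-scaled, linear axis from 0) in each of the 6 RNA-seq libraries for all 67 histone genes, for the 17 with and the 50 without a polyadenylation signal (left), and for 4 annotated RNA biotypes (right); symbols are libraries, horizontal bars are means and whiskers are SD (n = 3). The 50 genes without the signal sit at 51.1 to 97.6 CPM in wild type and at 115 to 275 CPM in Mov10-/- libraries, while the 17 genes with it overlap.

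In summed levels, the contrast was larger for the genes without a polyadenylation signal. Their sum was 56, 51.1 and 97.6 CPM in wild type replicates 1, 2 and 3, and 128, 275 and 115 CPM in Mov10-/- replicates 2, 3 and 4, so every Mov10-/- library stood above every wild type library. The means were 68.3 ± 25.5 and 172 ± 88.9 CPM (SD, n = 3 each), a ratio of 2.53. For 15 of these 50 genes the annotated transcript stopped at the stop codon, so that a signal beyond it would not be seen. The 35 genes annotated past the stop codon summed to 39.4, 38.4 and 65.6 CPM in wild type and to 83.6, 171 and 73.2 CPM in Mov10-/- libraries, a ratio of 2.28 with no overlap. The 17 genes with the signal summed to 106, 149 and 147 CPM in wild type and to 134, 187 and 149 CPM in Mov10-/- libraries, in the same order. These overlapped, and the ratio of the means was 1.17. Hist2h2be alone made up much of that second sum. Without it, the other 16 genes with the signal summed to 63.8, 74.8 and 77.4 CPM in wild type and to 85.5, 137 and 83.3 CPM in Mov10-/- libraries, a ratio of 1.41 with no overlap. The log2 ratio without Mov10-/- replicate 3 was 0.83 for the genes lacking the signal and 0.08 for the 17 with it. Counted gene by gene, 21 of the 50 genes without the signal and 6 of the 17 with it had no overlap, all upward. Of all genes with a read, 8.1% had none upward and 11.5% none downward. A gene without the signal need not end at its hairpin, since the transcript of Hist1h1d was annotated for 4884 bases past it. Whether the ratios of the 2 groups differ was not tested.

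Summed levels of RNAs that carry no poly(A) tail also had the higher mean in Mov10-/- testes. The 51 annotated scaRNA genes, which guide the modification of spliceosomal RNAs, summed to 21.7, 11.7 and 41.4 CPM in wild type replicates 1, 2 and 3, and to 68.8, 105 and 50.4 CPM in Mov10-/- replicates 2, 3 and 4. The 354 annotated rRNA genes, which are mostly small copies, summed to 17.3 to 43.9 CPM in wild type and to 42.9 to 113 CPM in Mov10-/- libraries. For snoRNA genes the ranges were 70.1 to 130 and 134 to 224 CPM, and for snRNA genes they were 54.5 to 66.8 and 69.3 to 101 CPM. In each of these biotypes the highest library was Mov10-/- replicate 3 and the highest wild type library was replicate 3, as in the histone sum. The rest of the order was not always shared. Wild type replicate 2 was above replicate 1 in the histone and snRNA sums, but below it in the scaRNA, snoRNA and rRNA sums. The biotypes were picked after the histone values were seen, and the part of poly(A) capture in the histone result was not tested.

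Gene by gene, 66 of the 67 histone genes had at least 1 read, the exception being Hist2h3c1. All 3 Mov10-/- libraries stood above all 3 wild type libraries for 27 of the 66 genes, and below them for 0, where 8.1% and 11.5% of the 36251 genes with a read did so. The mean was higher in Mov10-/- testes for 58 genes and lower for 8. Leaving out 1 library at a time, an alternative added after the data were seen, gave 27 to 39 genes with no overlap upward and 0 to 2 downward, where 10 to 14.2% of all genes with a read had none upward and 14.2 to 18% none downward. The highest level of all 6 libraries was that of Mov10-/- replicate 3 for 52 of the 66 genes.

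A total of 41 of the 67 genes passed the filter of more than 1 RPM (the unscaled share in 1e6 reads on genes) in at least 3 of the 6 libraries. Of these, 22 needed a Mov10-/- library to pass and 5 of those had no wild type library above 1 RPM, so a count over the 41 is tilted toward higher levels in Mov10-/- testes and supports nothing on its own. By the edgeR quasi-likelihood test, calling a gene at more than a 2-fold change with adjusted p below 0.05, 0 of the 41 genes were called higher and 0 lower, where 0% and 0.00494% of the 20240 genes tested were called. The lowest adjusted p among the 41 was 0.152. At an unadjusted p under 0.05, 22 of the 41 were higher (5.57% of all genes tested) and 0 lower (11.9%). Without Mov10-/- replicate 3, 33 members were tested, of which 6 were higher and 1 lower at that limit. The share of all genes was not counted in that fit, so the 2 fits are not directly comparable. DESeq2 called 5 of the 41 higher (0.252% of all genes), the edgeR exact test 8 (0.346%) and limma voom 0 (0.00494%). None of these tools called any of the 41 lower, where DESeq2 called 4.88% and the edgeR exact test 5.09% of all genes lower. The genes called by DESeq2 were Hist1h1e, Hist1h2aa, Hist1h2ba, Hist1h4h and Hist4h4. The log2 fold change was positive for 35 of the 41 genes (53.8% of all genes tested) and negative for 6 (46.2%), and its median was 1.29, against 0.03 for all genes tested. Restricted to the 19 members that exceeded 1 RPM in all 3 wild type libraries, and so did not need a Mov10-/- library to pass, it was 0.53, against 0.02 for the 18779 genes that met the same condition, and 7 of the 19 had no overlap upward, where 11.7% of those genes did.

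**Figure D2:**
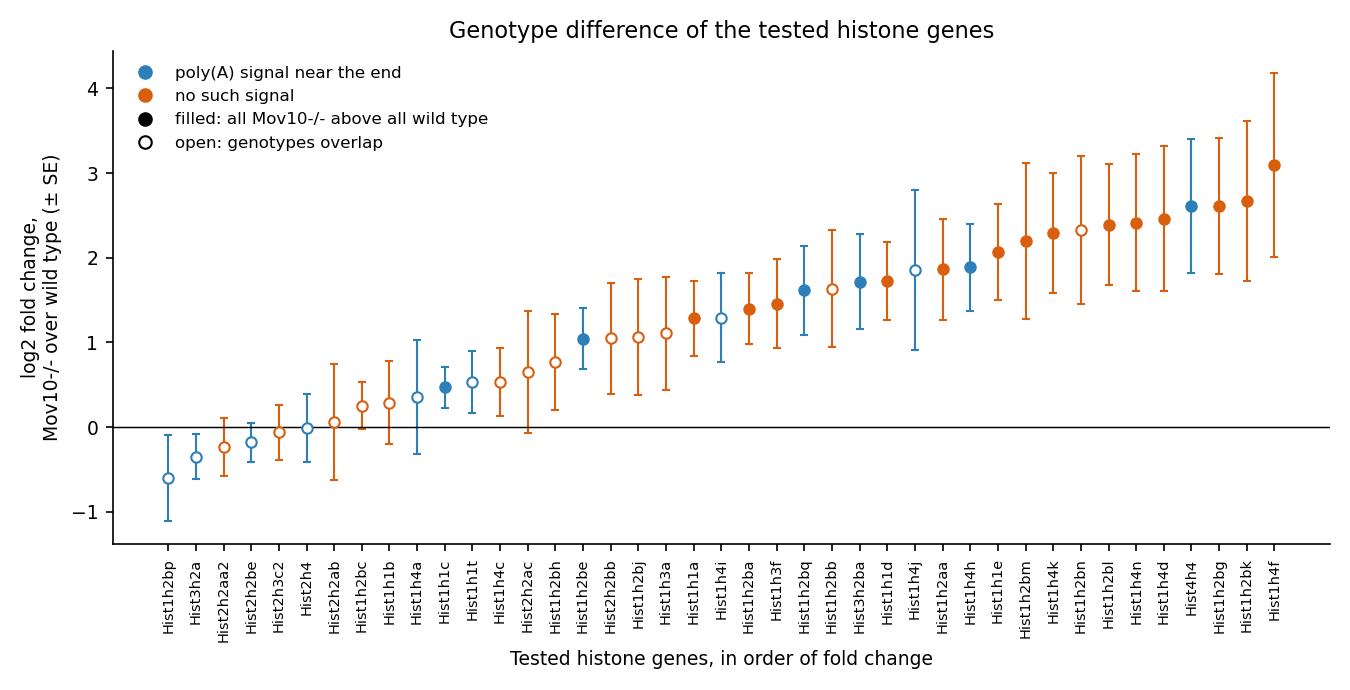
Log2 fold change (Mov10-/- over wild type, edgeR, linear axis of log2 values) of the 41 tested histone genes, in order; whiskers are SE, blue marks genes with and orange genes without a polyadenylation signal, and filled points are genes whose 3 Mov10-/- libraries all lie above the 3 wild type libraries. Values run from -0.60 for Hist1h2bp to 3.09 for Hist1h4f, and 35 of the 41 lie above 0.

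The testis variants were among the more abundant members. Hist1h2ba encodes the testis H2B variant TH2B and had the highest level per length of the family, with 26.2 CPM per kb of exon in wild type and 69.7 in Mov10-/- testes. It stood at 8.79, 5.73 and 15.7 CPM in wild type replicates 1, 2 and 3, and at 20, 38.5 and 21.9 CPM in Mov10-/- replicates 2, 3 and 4. Its head-to-head partner Hist1h2aa encodes the testis H2A variant TH2A and stood at 2.58, 2.04 and 6.42 CPM in wild type and at 9.51, 23.9 and 7.49 CPM in Mov10-/- libraries. Both genes lie at the edge of the Hist1 cluster, at chr13:23933773-23934156 on the minus strand and chr13:23934462-23934851 on the plus strand, and for both the genotypes did not overlap. The log2 fold changes were 1.40 ± 0.42 for Hist1h2ba and 1.86 ± 0.59 for Hist1h2aa (SE), with adjusted p of 0.172 and 0.184 by the edgeR quasi-likelihood test and 0.0247 and 0.0418 by DESeq2. The value of Hist1h2aa was 1.19 without Mov10-/- replicate 3 and 2.52 without wild type replicate 3. Hist1h1t encodes the testis linker histone H1t and stood at 9.38, 7.5 and 13.5 CPM in wild type and at 8.89, 19.4 and 15.8 CPM in Mov10-/- libraries. Here the genotypes overlapped, since Mov10-/- replicate 2 lay below wild type replicate 1, and the log2 fold change was 0.53 ± 0.37 (edgeR adjusted p of 0.489). Hist1h1t had both a hairpin and a polyadenylation signal in its annotated transcript, whereas the transcripts of the other two variants end at the stop codon, so their ends could not be searched.

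**Figure D3:**
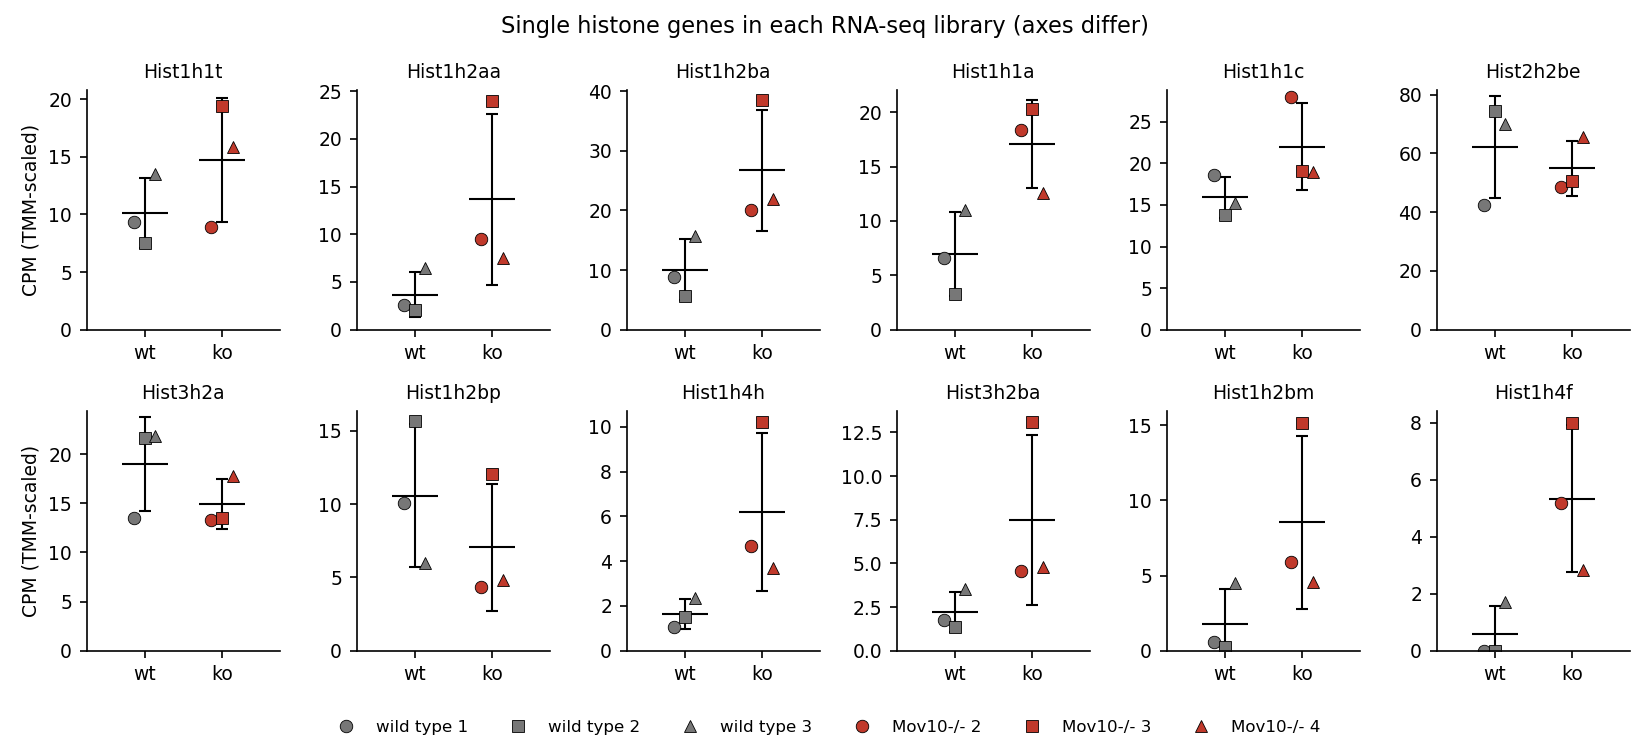
CPM (TMM-scaled, linear axes from 0 that differ between panels) of 12 histone genes in the 6 RNA-seq libraries; symbols are libraries, horizontal bars are means and whiskers are SD (n = 3), with wild type (wt) left and Mov10-/- (ko) right. Hist1h2ba sits at 5.73 to 15.7 CPM in wild type and at 20 to 38.5 CPM in Mov10-/- libraries, while Hist2h2be, Hist3h2a and Hist1h2bp overlap.

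For the linker histones the sum was higher in every Mov10-/- library. For 4 of the 6 genes the genotypes did not overlap, all upward, beside 8.1% upward and 11.5% downward of all genes with a read. The 6 H1 genes summed to 37, 26.6 and 44.7 CPM in wild type replicates 1, 2 and 3, and to 63.5, 73.6 and 54.8 CPM in Mov10-/- replicates 2, 3 and 4, a ratio of 1.77 with no overlap. Without Mov10-/- replicate 3 the log2 ratio was 0.71, against 0.83 with it. Hist1h1a, the H1.1 gene, stood at 6.56, 3.27 and 11 CPM in wild type and at 18.4, 20.3 and 12.5 CPM in Mov10-/- libraries, with a log2 fold change of 1.28 ± 0.44. Hist1h1c, the H1.2 gene, was the most abundant H1 gene by CPM and stood at 18.6, 13.8 and 15.3 CPM in wild type and at 28, 19 and 18.9 CPM in Mov10-/- libraries. These did not overlap, but the lowest Mov10-/- value and the highest wild type value lay close together, and the log2 fold change was 0.47 ± 0.25 (edgeR adjusted p of 0.369).

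Among the H4 genes the ratio was the highest of the 5 classes. The 13 genes summed to 13.7, 17.4 and 26.5 CPM in wild type and to 38.8, 95.7 and 31.7 CPM in Mov10-/- libraries, a ratio of 2.88 (log2 1.53) with no overlap. Without Mov10-/- replicate 3 the log2 ratio was 0.87. Hist1h4h stood at 1.06, 1.5 and 2.35 CPM in wild type and at 4.69, 10.2 and 3.69 CPM in Mov10-/- libraries, with a log2 fold change of 1.89 ± 0.51 (adjusted p of 0.155 by the edgeR quasi-likelihood test and 0.0452 by DESeq2). Hist4h4, the gene outside the clusters, stood at 0.586, 0.273 and 1.92 CPM in wild type and at 4.08, 11.5 and 2.58 CPM in Mov10-/- libraries, which made 2.61 ± 0.79 on the log2 scale (1.78 without Mov10-/- replicate 3 and 3.69 without wild type replicate 3). Hist1h4f had the largest fold change of the tested members, 3.09 ± 1.09, and stood at 0, 0 and 1.71 CPM in wild type and at 5.19, 7.98 and 2.83 CPM in Mov10-/- libraries. With 0 reads in 2 wild type libraries, the size of this change depends on few reads, and all wild type reads came from replicate 3. Hist1h4d reached 0.136 to 2.57 CPM in wild type and 3.56 to 11.5 CPM in Mov10-/- libraries, with a log2 fold change of 2.46 ± 0.85 (1.76 without Mov10-/- replicate 3 and 4.004 without wild type replicate 3). By contrast, Hist1h4c overlapped, with 4.34 to 5.56 CPM in wild type and 4.69 to 11.7 CPM in Mov10-/- libraries.

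The H2B genes held the largest part of the family's reads and did not move as one. Their sum was 80.2, 112 and 124 CPM in wild type and 117, 190 and 129 CPM in Mov10-/- libraries, in which Mov10-/- replicate 2 fell below wild type replicate 3. Hist2h2be, an H2B gene with an exon model that ends in a polyadenylation signal and with none of its 50-base words shared with another gene, was the most abundant member by CPM. It stood at 42.4, 74.4 and 69.9 CPM in wild type and at 48.7, 50.5 and 65.5 CPM in Mov10-/- libraries, with a log2 fold change of -0.18 ± 0.23 (edgeR adjusted p of 0.709). Hist1h2bp had the most negative value, -0.60 ± 0.51, and stood at 10.1, 15.7 and 5.99 CPM in wild type and at 4.32, 12.1 and 4.79 CPM in Mov10-/- libraries, which overlapped. Hist1h2bc, at 7.77 to 9.62 and 8.11 to 12.7 CPM, also overlapped. At the other end, Hist1h2bm stood at 0.586, 0.273 and 4.49 CPM in wild type and at 5.93, 15.1 and 4.55 CPM in Mov10-/- libraries, so wild type replicate 3 all but reached Mov10-/- replicate 4. Its log2 fold change of 2.20 ± 0.92 was 1.51 without Mov10-/- replicate 3 and 4.20 without wild type replicate 3. Hist3h2ba had 1.36 to 3.53 CPM in wild type and 4.57 to 13.1 CPM in Mov10-/- libraries, a log2 fold change of 1.72 ± 0.56 (1.06 without Mov10-/- replicate 3). Hist1h2bg and Hist1h2bk had both 0 to 0.748 CPM in wild type, and 1.23 to 3.48 and 1.11 to 4.91 CPM in Mov10-/- libraries, so their log2 fold changes of 2.61 ± 0.80 and 2.67 ± 0.94 rest on a handful of wild type reads (3.96 and 4.005 without wild type replicate 3).

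The H2A and H3 genes were the least often measured. Of the 18 H2A genes 5 passed the filter, and of the 12 H3 genes 3 did. A median of 73 percent of the 50-base words of an H2A gene, and 62 percent of those of an H3 gene, also occurred in a transcript of another annotated gene, against 1.13 percent for H1, 39.5 percent for H4 and 46.9 percent for H2B. For 5 genes, Hist2h2aa1, Hist2h2aa2, Hist2h2bb, Hist2h3b and Hist2h3c1, every word was shared, so how their reads were split is uncertain. Words were counted as shared on either strand, and also with an annotated gene at the same place, which each of these 5 overlaps. Sharing and passing the filter did not go together in every gene, since Hist2h2aa2 and Hist2h2bb passed while Hist1h2ac, with 14.1 percent shared, and Hist1h3d, with 24.8 percent, did not. The H2A sum was 25.4, 36.3 and 40.9 CPM in wild type and 32.6, 74.5 and 38.3 CPM in Mov10-/- libraries, and the H3 sum was 5.86, 8.32 and 8.77 CPM in wild type and 9.39, 27.6 and 10.2 CPM in Mov10-/- libraries. The H2A sums overlapped, and without Mov10-/- replicate 3 the log2 ratio of the H2A sum was 0.05 and that of the H3 sum 0.36, against 0.50 and 1.04 with it. Hist3h2a made up much of the H2A sum, with 13.5, 21.7 and 21.8 CPM in wild type and 13.3, 13.5 and 17.8 CPM in Mov10-/- libraries. Hist2h2aa2, at 5.16 to 6.41 and 3.21 to 6.34 CPM, and Hist2h3c2, at 4.1 to 4.77 and 3.09 to 5.32 CPM, overlapped too.

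**Figure D4:**
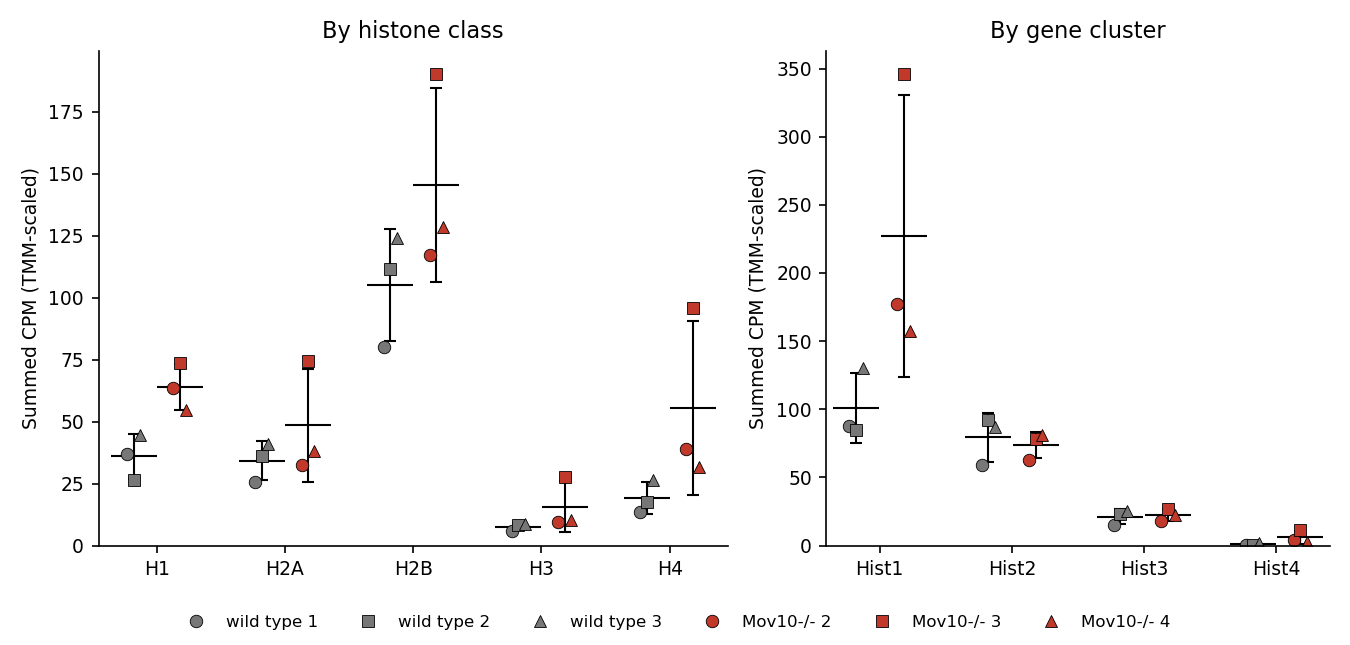
Summed CPM (TMM-scaled, linear axes from 0) by histone class (left) and by gene cluster (right) in the 6 RNA-seq libraries; symbols are libraries, horizontal bars are means and whiskers are SD (n = 3). H1, H3 and H4 and the Hist1 cluster separate the genotypes, while the Hist2 cluster reads 58.7 to 92.3 CPM in wild type and 62.9 to 80.7 CPM in Mov10-/- libraries.

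By position, the Hist1 sum separated the genotypes and the Hist2 sum did not. The 54 Hist1 genes summed to 87.7, 84.8 and 130 CPM in wild type replicates 1, 2 and 3, and to 177, 346 and 158 CPM in Mov10-/- replicates 2, 3 and 4, a ratio of 2.25. The 10 Hist2 genes summed to 58.7, 92.3 and 87.2 CPM and to 62.9, 78.2 and 80.7 CPM, a ratio of 0.931 with overlap. The 7 tested Hist2 genes had a median log2 fold change of -0.01, and 0 of the 10 were free of overlap, while 25 of the 54 Hist1 genes were, all upward, beside 8.1% upward and 11.5% downward of all genes with a read. The difference between the clusters was not tested. The 26 members that did not pass the filter had mean levels of at most 0.493 CPM in wild type and 2.13 CPM in Mov10-/- testes, and 22 of them had the higher mean in Mov10-/- testes.

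The counts near these genes have a further limit, in that 24 of the 67 overlap another annotated gene, 21 of them on the opposite strand, mostly a predicted miRNA, and 7 on the same strand. Hist1h2be spans chr13:23583670-23621124 and overlaps the end of Hist1h1e, at chr13:23620629-23622558, on the same strand. It stood at 1.76, 3 and 2.99 CPM in wild type and at 4.82, 6.75 and 4.55 CPM in Mov10-/- libraries, with a log2 fold change of 1.04 ± 0.36.

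Genes that act on histone mRNA and chromatin were read from lists chosen with earlier results known. Of 25 matched histone mRNA processing and decay factors, all of which passed the filter, 0 were called in either direction by the edgeR quasi-likelihood test and 0 had an unadjusted p under 0.05. Slbp, whose protein binds the hairpin, stood at 85.2, 81.7 and 86.9 CPM in wild type and at 86.6, 107 and 86.6 CPM in Mov10-/- libraries, with a log2 fold change of 0.14 ± 0.11. Lsm11, part of the U7 particle, had 0.35 ± 0.17, and its libraries did not overlap, with 21 to 25.8 CPM in wild type and 27.8 to 32.3 CPM in Mov10-/- testes. The median of this list was 0.10, that of the 21 histone chaperones 0.04 and that of the 30 S-phase and replication genes 0.15, against 0.03 for all genes. In these 3 lists 0 genes were called by any of the 4 tools. At an unadjusted p under 0.05 by the edgeR quasi-likelihood test, 3 S-phase genes were higher and 0 lower. At the same limit 1 chaperone was higher and 1 lower. Of all genes tested, 5.57% were higher and 11.9% lower at that limit. In the S-phase list 8 genes had no overlap upward and 1 downward, beside 11.9% and 14.1% of all genes tested. Cdt1, which licenses replication origins, stood at 26.3, 17.9 and 26.8 CPM in wild type and at 35.6, 40.9 and 34.8 CPM in Mov10-/- libraries, a log2 fold change of 0.65 ± 0.20. Mcm2, a subunit of the replicative helicase, had 0.44 ± 0.16, and the edgeR adjusted p were 0.182 and 0.217.

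Histone genes outside the family, whose mRNAs mostly carry poly(A) tails, were read in the same way. Of 19 matched replication-independent genes 14 passed the filter, and 0 were called by the edgeR quasi-likelihood test or limma voom. DESeq2 and the edgeR exact test both called 2 lower, H1fnt and Hils1, where they called 4.88% and 5.09% of all genes lower. At an unadjusted p under 0.05 by the edgeR quasi-likelihood test, 2 were higher (5.57% of all genes tested) and 3 lower (11.9%). The 19 genes summed to 558 to 697 CPM in wild type and 578 to 720 CPM in Mov10-/- libraries. The 3 downward genes are known from spermatids. H1fnt, a spermatid linker histone, stood at 15.4, 81.4 and 5.99 CPM in wild type and at 1.23, 3.68 and 0.983 CPM in Mov10-/- libraries. Hils1, another spermatid linker histone, had a log2 fold change of -2.25 ± 0.59, and H2afb3 had -1.82 ± 0.61, with edgeR adjusted p of 0.15 and 0.198.

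Cell type markers also moved between the groups, and their part in the histone result was not tested. The 25 spermatid markers summed to 911 to 2210 CPM in wild type and to 523 to 1032 CPM in Mov10-/- libraries. At an unadjusted p under 0.05 by the edgeR quasi-likelihood test, 19 of the 23 tested were lower and 0 higher. Of all genes tested, 11.9% were lower and 5.57% higher at that limit. The 12 Sertoli markers summed to 757 to 876 and 931 to 1121 CPM, with 5 of 11 at an unadjusted p under 0.05 upward. The 16 spermatogonia markers, from cells that replicate DNA, summed to 639 to 844 and 822 to 933 CPM, and the 16 spermatocyte markers to 2203 to 2429 and 2008 to 2636 CPM. In the same order, Leydig markers summed to 327 to 588 and 436 to 640 CPM, macrophage markers to 304 to 514 and 386 to 553 CPM, and red blood cell markers to 56.3 to 68.1 and 65.1 to 76.6 CPM. By the edgeR quasi-likelihood test and limma voom, 0 genes of these lists were called, while DESeq2 called 15 spermatid markers and the edgeR exact test 14, all lower. Both also called the macrophage marker Aif1 lower. It went against its list, since the median log2 fold change of the 12 macrophage markers was 0.32. Among all genes tested, DESeq2 called 4.88% and the edgeR exact test 5.09% lower. No matched marker was at 0 in all libraries. By library, spermatid markers summed to 1151, 2210 and 911 CPM in wild type replicates 1, 2 and 3. In Mov10-/- replicates 2, 3 and 4 they summed to 523, 1032 and 663 CPM. In the same order, the 50 histone genes without a polyadenylation signal summed to 56, 51.1 and 97.6 CPM and to 128, 275 and 115 CPM. Mov10-/- replicate 3 had the highest histone sum but more spermatid marker RNA than the other Mov10-/- libraries and than wild type replicate 3. Across all libraries but that one, a higher spermatid sum went with a lower sum of these histone genes. The link between the 2 sums was not tested.

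The CLIP-seq files held few reads on histone genes. They held 3404 to 4934 reads on genes, so that 1 read was worth 203 to 294 RPM, and a gene with no read may still have reached 608 RPM in the deepest library, the level of 3 reads. Reads fell on 3 of the 67 genes, Hist1h1a, Hist1h2be and Hist1h2bg, each with 1 read in replicates 1, 2 and 3 and 0 in replicate 5. Of the 63 members with a wild type RNA-seq read these 3 make up 4.76%, where 11.6% of the 34367 such genes had at least 1 CLIP-seq read. Replicates 1, 2 and 3 differed by less than the sampling noise (chi-square per degree of freedom of 0.223 to 0.237 over genes that had 5 or more reads summed over both libraries, against 1.62 to 1.93 for the pairs with replicate 5) and were counted as 1 sample. Averaged in this way, the family stood at 419.6 RPM in CLIP-seq and 202 RPM in wild type RNA-seq, a ratio of 2.07 with an exact 95% Poisson interval of 0.428 to 6.06 on 3 reads. The interval covers counting error only and spans 1. The direction depended on the scaling, with 0.41 (0.0846 to 1.2) under TMM across both assays and 0.287 (0.0591 to 0.838) over all placed reads, so no direction is read from the ratio.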

How the data were processed

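The deposited counts are whole numbers of reads per Ensembl gene in each library. The authors aligned trimmed reads to mm10 with STAR and counted them with HTSeq, per the labels and the study's methods, and the strand setting is not given in the sources used here. Reads that HTSeq set aside as unaligned, ambiguous or not unique were left out of library totals. Symbols, types and transcripts came from GENCODE vM21, which matched 55240 of the 55421 gene identifiers. The 3 histone pseudogenes with a fitting symbol were left out.

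The edgeR quasi-likelihood test with TMM scaling and Benjamini-Hochberg adjustment (edgeR 4.0.16, R 4.3.3) was run on 20240 genes with more than 1 RPM in at least 3 of 6 libraries and was tested on simulated data. DESeq2 1.42.0, limma 3.58.1 (voom), the edgeR exact test, other scalings and filters, and leaving out each library were alternatives. Depth was 5083407 to 9230540 reads on genes for RNA-seq and 3404 to 4934 for CLIP-seq. Levels per kb used the summed exon length of a gene. The family and all gene lists were chosen with earlier results of these data known. Named were Mov10, Slbp, the 3 testis variants, the 15 members with the highest mean CPM per kb, the 5 tested members at each end of the fold changes, the members with CLIP-seq reads, and up to 4 genes of each other list with the largest change among those tested. Lists covered replication-independent histones, histone mRNA factors, chaperones, S-phase genes and markers of spermatogonia, spermatocytes, spermatids, Sertoli, Leydig, macrophage and red blood cells.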

Additional observations from a re-analysis of the deposited data

Results flagged for a closer look

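In CLIP-seq, the summed level of the histone genes was 0 RPM in replicate 5, where replicates 1, 2 and 3 stood at 760, 876 and 881 RPM, and this gap set replicate 5 apart from the other 3 by Dixon's test at the 95% level. Chance sets apart about 1 in 20 such groups of independent values. That rate does not hold here, because replicates 1, 2 and 3 were counted as 1 sample. The values of replicates 1, 2 and 3 come from 3 reads each on the same 3 genes, and these replicates differed by less than sampling noise, so the gap compares 3 reads with 0 reads.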

How the results depend on the processing

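With the edgeR quasi-likelihood test, 0 of the 41 tested histone genes were called higher, while DESeq2 called 5 and the edgeR exact test 8. The other scalings and filters, limma voom and leaving out any library gave 0, and no alternative called a member lower. The cause was not tested. The median log2 fold change of the tested members stayed positive under every alternative. It ran from 1.05 to 1.81 when a library was left out (without Mov10-/- replicate 3 and without wild type replicate 3). Over the 66 genes with any read it was 1.66. In the main fit 22 of the 41 genes needed a Mov10-/- library to pass the filter, which tilts this median upward. Over the 19 members above 1 RPM in every wild type library it was 0.53. The log2 ratio of the summed CPM ran from 0.38 to 0.86 when a library was left out. Leaving out 1 library gave 27 to 39 members with no overlap upward, beside 10 to 14.2% of all genes with a read. Replicate numbers 2 and 3 are shared by both genotypes, and the sources do not say what a number marks. Deviations from the genotype mean correlated at -0.46 and -0.34 between same-numbered libraries. They correlated at 0.45 between Mov10-/- replicate 3 and wild type replicate 2. With 3 libraries per genotype, deviations from a mean are tied to each other, so these correlations cannot show what a number marks. With the replicate number as a block, 0 members were called, the median was 1.58, and the lowest adjusted p was 0.074. Wild type replicate 1 and Mov10-/- replicate 4 have no partner of the same number. The genotype difference in that fit thus comes from replicates 2 and 3 alone. The CLIP-seq to RNA-seq ratio of 2.07 fell to 0.41 with TMM across both assays and to 0.287 over all placed reads, was 3.11 with 4 separate CLIP-seq libraries, and ran from 1.9 to 4.15 when a library was left out. Hist2h3c2 (log2 fold change -0.06) ran from -0.25 to 0.13 when a library was left out, and was 0.0036 without wild type replicate 2.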
